A study of Mus musculus with 6 samples.

Results

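The genes described are the subunits of the glutamate receptors and of the GABA-A and GABA-B receptors, found by gene symbol. They were chosen with earlier results of these data known. The family symbols name 41 genes here, of which 35 had a probe set with 1 gene symbol, out of 19938 genes tested. These 35 were 4 AMPA, 5 kainate, 6 NMDA and 1 delta receptor gene, 7 metabotropic glutamate receptor genes, 10 GABA-A and 2 GABA-B receptor genes. The other family members were not analysed here.

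RNA was measured in dissected neocortex, the largest division of the cortex, taken from 6 mouse embryos at E14.5 (embryonic day 14.5). Of these, 3 were Bcl11a mutants, homozygous for the deleted form of a floxed allele (Δflox/Δflox, labelled knockout), and 3 were Bcl11a wild-type controls (+/+). Each embryo gave 1 Mouse Gene 1.0 ST array, a whole-transcript oligonucleotide array, and values are log2 expression. Sources used here name no Cre driver, deleted exon or cell type of deletion, and give neither litter nor sex. Bcl11a is a zinc finger transcription factor expressed by projection neurons, and the comparison asks which transcripts differ when the gene is deleted.

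Glutamate and GABA are the main excitatory and inhibitory transmitters of the mature cortex. AMPA, kainate and NMDA receptors are glutamate-gated cation channels of several subunits, GABA-A receptors are chloride channels, and metabotropic glutamate and GABA-B receptors act through G proteins. In the embryonic cortex these receptors are present before most synapses form, GABA tends to depolarise immature neurons, and both transmitters are known to influence the proliferation and migration of cortical cells.

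Bcl11a (Entrez 14025) was at 11.41, 11.49 and 11.34 in the mutants, against 12.20, 12.30 and 12.26 in the controls. It fell by 0.84 on the log2 scale (SE 0.06, limma adjusted p = 0.00201). The position of these probes against the deleted segment is unknown here, and any probe outside it would not check the genotype. Correlations between arrays over the genes tested lay between 0.995 and 0.998. Markers of the neocortex were high in all arrays, with Tbr1 at 12.23, 12.26 and 12.24 in the mutants and 12.29, 12.23 and 12.22 in the controls. Mean levels of 8 measured markers of projection neurons and progenitors were 11.67 to 11.74 in mutants and 11.64 to 11.72 in controls. All 8 measured erythroid markers were higher in the mutants, and 6 of them passed the adjusted threshold. The mean level of the 8 was 8.95 to 9.06 in mutants and 7.54 to 7.72 in controls. Of 10 markers of pericytes and meninges none passed, and their mean level was 8.13 in mutant replicate 1, 7.41 and 7.31 in the other mutants and 7.07 to 7.19 in controls. Of these 10, 9 were higher in the mutants and 4 (40%) did not overlap between groups. Of 9 markers of microglia none passed, with mean levels of 7.37 to 7.52 in mutants and 7.09 to 7.29 in controls. All 9 were higher in the mutants, where 60.3% of all genes were. The groups did not overlap for 5 of the 9 (55.6%), where 10.5% of all genes did not overlap. Of 8 endothelial markers none passed, with mean levels of 8.39 to 8.78 in mutants and 8.30 to 8.54 in controls. All 8 were higher in the mutants, and 1 (12.5%) did not overlap between groups. Of the markers of ganglionic eminence and striatum 7 were measured, and Ebf1 alone passed, rising by 0.88 on the log2 scale. None of 5 markers of thalamus passed. The part of these markers in the results on receptor genes was not tested. In bulk tissue fewer cells of a type and less RNA per cell cannot be told apart.

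A single receptor gene passed the threshold of an adjusted p under 0.05, Grm2, which was higher in the mutants. This is 1 of 35 genes, where 0.286% of all genes tested passed in either direction, 0.246% as higher and 0.0401% as lower in the mutants. None of the 35 passed as lower in the mutants. At an unadjusted limma p under 0.05 there were 5 of the 35, which were Grm2, Grik4, Gabrb2, Gria3 and Gabbr2, or 14.3%, where 6.05% of all genes reached it, 4.53% as higher and 1.52% as lower in the mutants. Fits without 1 array gave 4 to 9 such genes, the 9 without control replicate 3, and array weights also gave 9. No overlap between mutants and controls was found for 6 of the 35 genes, or 17.1%, where 10.5% of all genes did not overlap, 7.69% with mutants above and 2.85% with mutants below. Of these, mutants were above controls for Grm2, Grik4, Gabrb2, Grin2d and Gabbr1 and below them for Gria3. The median difference of the 35 genes, mutant minus control, was 0.02 on the log2 scale, as was that of all genes. The differences ran between -0.26 and 0.53. As deposited, 20 of the 35 (57.1%) were positive, where 60.3% of all genes were. After repeated quantile normalization 15 were positive, and after centring each array on its median 14 were.

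**Figure D1:**
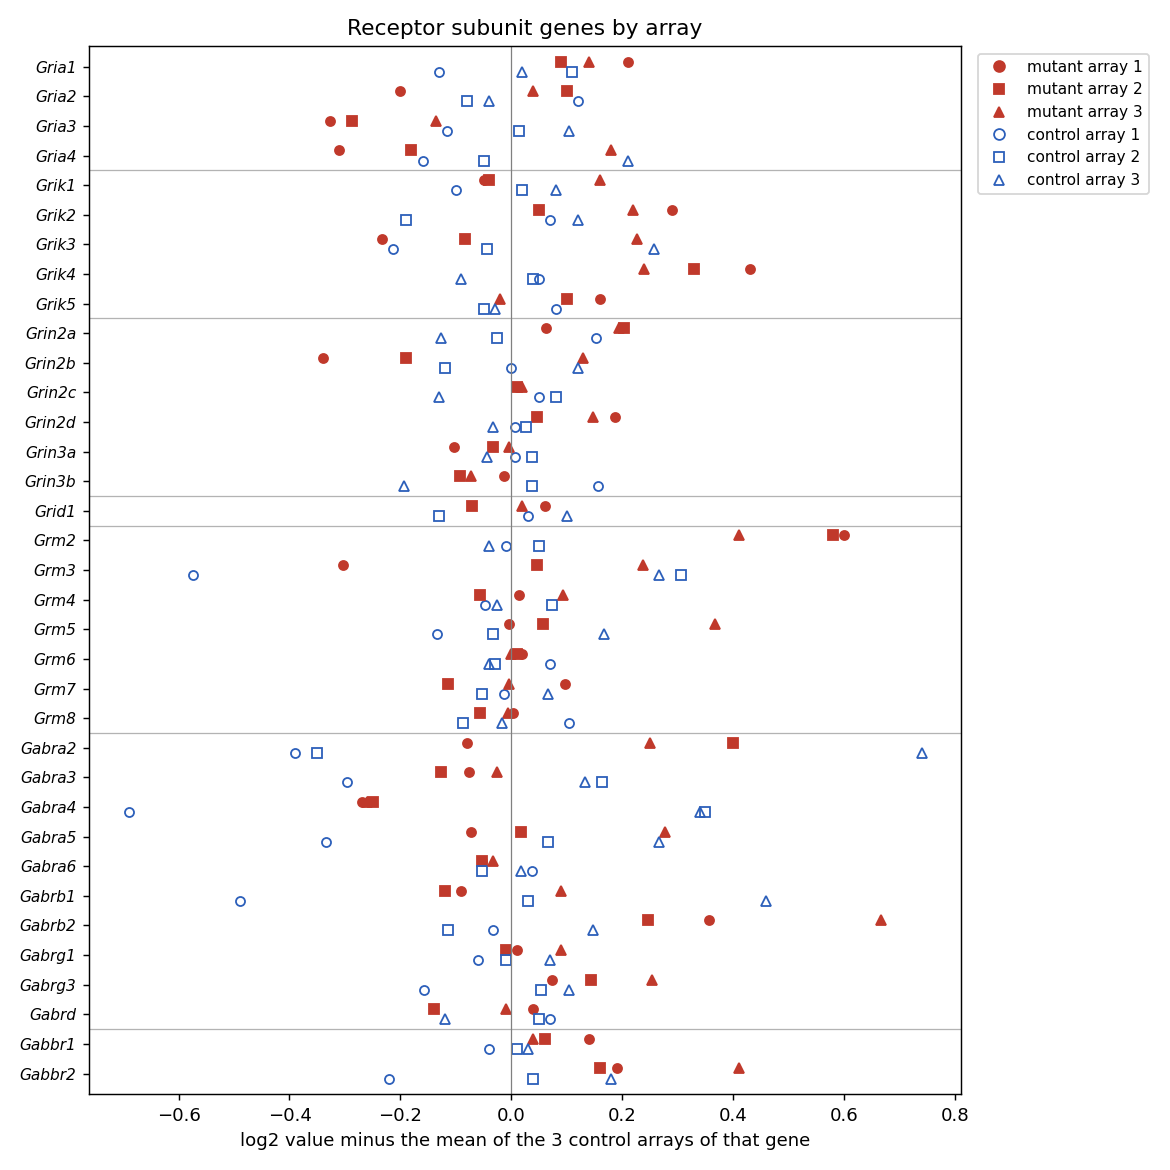
Log2 value of each of the 35 receptor genes on each array, as the distance from the mean of that gene's 3 control arrays, with filled red marks for mutants and open blue marks for controls, and grey lines between receptor classes. Grm2 has all 3 mutants to the right of all controls, and the widest control spreads belong to Gabra2, Gabra4, Gabrb1 and Grm3.

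As a reading of dimness, 1212 olfactory, vomeronasal and bitter taste receptor genes, which belong to sensory cells, had a 95th percentile of 6.29 on the log2 scale. Of the 35 receptor genes, 30 were above this level in at least 1 group. The 5 that were not were Grin2a, Grin3a, Grm8, Gabra6 and Gabrg1, with group means between 4.73 and 6.14. Their differences cannot be read as changes in expression. Gabra6 is best known from cerebellar granule cells, and Grin2a is an NMDA subunit whose expression in the cortex is known mainly after birth.

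Metabotropic glutamate receptors were the class with a call. They fall into group I, which acts through Gq and phospholipase C, and groups II and III, which lower cyclic AMP through Gi/o. Grm2 and Grm3 make up group II and are known as presynaptic and glial receptors that dampen transmitter release. Grm2 (Entrez 108068) was at 8.42, 8.40 and 8.23 in the mutants, against 7.81, 7.87 and 7.78 in the controls. Its lowest mutant was above its highest control. It averaged 8.35 ± 0.11 in mutants and 7.82 ± 0.05 in controls (SD, n = 3 each), and rose 1.44-fold, which is 0.53 ± 0.07 on the log2 scale (SE, adjusted p = 0.0264 in limma). The 95% interval of the difference was 0.37 to 0.69. By its p-value it stood at place 37 of 19938 genes. A two-sided exact permutation test gave p = 0.1, and 3 against 3 arrays allow no smaller one. The call held without mutant replicate 3 (adjusted p = 0.0296) and was lost without control replicate 1 (0.0759), control replicate 2 (0.0982), control replicate 3 (0.0737), mutant replicate 1 (0.13) or mutant replicate 2 (0.142), with differences between 0.49 and 0.59 in these 6 fits.

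Grm3 (Entrez 108069), the other gene of group II, was at 6.86, 7.21 and 7.40 in the mutants, against 6.59, 7.47 and 7.43 in the controls. The groups overlapped, and control replicate 1 and mutant replicate 1 were each the lowest of their group. Its difference was -0.01, with a 95% interval of -0.54 to 0.51, which overlaps the interval of Grm2. Whether the responses of Grm2 and Grm3 differ was not tested.

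The start regions of this pair are shown because 1 gene of it passed and the other did not. The sequences are from RefSeq, assembly GRCm38.p6, and run 5′ to 3′ on the gene's strand from 250 bases before to 50 bases after the annotated start. The capitals mark the GC box GGGCGG, a binding motif of Sp1 and its relatives, searched on both strands with overlapping matches counted. It has 4 matches in the window of Grm2 (chr9:106656060-106656359, minus strand) and 2 in that of Grm3 (chr5:9725303-9725602, minus strand). At least 1 match is held by 35.7% of all 32851 windows of this length, and by 46.9% of the 32 windows of receptor genes. The GC content of the window is 72.0% for Grm2 and 63.7% for Grm3. Whether the number of matches bears on expression was not tested.
Grm2: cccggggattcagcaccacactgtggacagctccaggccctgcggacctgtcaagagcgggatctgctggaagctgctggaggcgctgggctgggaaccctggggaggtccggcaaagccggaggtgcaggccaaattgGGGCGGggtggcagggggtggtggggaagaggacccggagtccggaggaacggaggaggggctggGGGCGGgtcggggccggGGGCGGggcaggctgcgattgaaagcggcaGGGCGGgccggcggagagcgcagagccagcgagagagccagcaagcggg
Grm3: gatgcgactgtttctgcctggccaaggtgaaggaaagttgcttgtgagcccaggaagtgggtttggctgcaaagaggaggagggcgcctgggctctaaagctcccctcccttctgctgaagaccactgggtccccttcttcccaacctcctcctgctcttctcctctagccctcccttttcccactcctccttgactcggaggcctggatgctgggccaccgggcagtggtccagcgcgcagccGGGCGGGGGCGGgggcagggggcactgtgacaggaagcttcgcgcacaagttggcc
The hexamer TGACCA, recorded for human BCL11A at a fetal globin promoter, has no match in either window, on either strand. This says only that these letters are not in these windows.

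Grm5, a group I receptor, was at 8.85, 8.91 and 9.22 in the mutants, against 8.72, 8.82 and 9.02 in the controls. The groups overlapped, and the difference was 0.14 ± 0.11 (SE), with a 95% interval of -0.12 to 0.39. It was 0.02 without mutant replicate 3, 0.07 without control replicate 1 and 0.22 without control replicate 3. Grm4, Grm6, Grm7 and Grm8 of group III had differences between -0.02 and 0.02, and the interval of each stayed between -0.17 and 0.17. Of these, Grm6 is best known as the receptor of retinal ON bipolar cells. Grm8 was within the range of the sensory receptor genes, and its interval says nothing of a change in expression. Grm6, at a mean of 6.45 in mutants and 6.44 in controls, was little above the 95th percentile of those genes, 6.29. RMA compresses differences of dim genes, so the narrow interval of Grm6 says little of its expression.

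**Figure D2:**
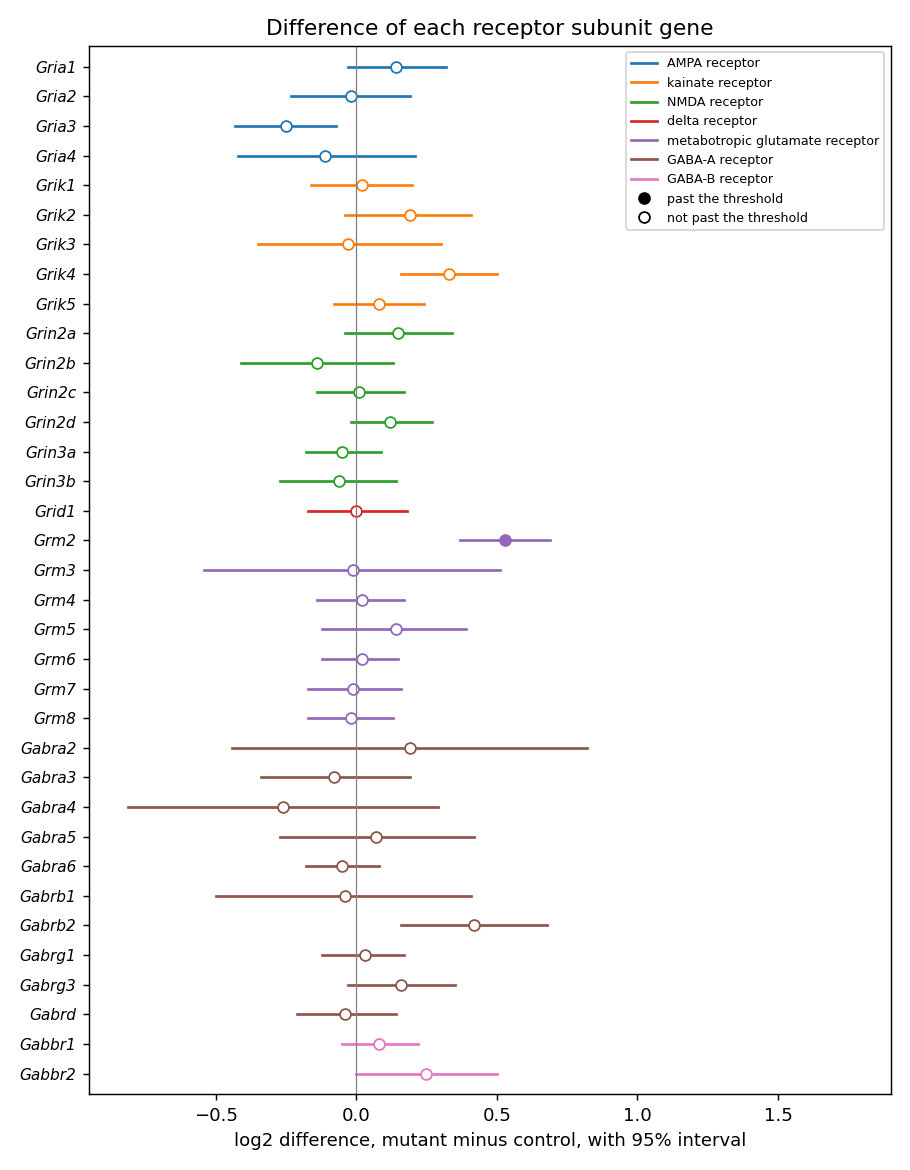
Log2 difference, mutant minus control, of each receptor gene with its 95% interval, coloured by receptor class, with a filled point where the adjusted p was under 0.05. Grm2, at 0.53, is the one filled point, and the widest intervals are those of Gabra2, Gabra4, Grm3 and Gabrb1.

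Among kainate receptors, Grik1, Grik2 and Grik3 encode subunits that can form channels on their own, while Grik4 and Grik5 encode subunits that need one of those to do so. No kainate receptor gene passed, and the class median was 0.08. Grik4 (Entrez 110637) was at 7.54, 7.44 and 7.35 in the mutants, against 7.16, 7.15 and 7.02 in the controls. The groups did not overlap, and the difference of 0.33 ± 0.07 (SE) had a limma adjusted p of 0.178, and of 0.248 to 0.525 when 1 array was left out. Its 95% interval was 0.16 to 0.50. Grik5 was at 10.78, 10.72 and 10.60 in the mutants, against 10.70, 10.57 and 10.59 in the controls, and these groups overlapped. Grik2 was at 10.77, 10.53 and 10.70 in the mutants, against 10.55, 10.29 and 10.60 in the controls, a difference of 0.19 ± 0.10 (SE, limma adjusted p = 0.952). The lowest mutant of Grik2 was below 2 of its 3 controls. Grik1 and Grik3 differed by 0.02 and -0.03, and the 3 mutants of Grik3 spread over 0.46 on the log2 scale, the 3 controls over 0.47.

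AMPA receptors carry most fast excitatory transmission in the mature brain. Their class median was -0.06, and none of the 4 genes passed. Gria3 (Entrez 53623), on the X chromosome, was at 9.94, 9.98 and 10.13 in the mutants, against 10.15, 10.28 and 10.37 in the controls. All mutants were below all controls, although the highest mutant and the lowest control were close. The difference was -0.25 ± 0.08 (SE), with a 95% interval of -0.43 to -0.07 and a limma adjusted p of 0.505. Gria1 was at 10.13, 10.01 and 10.06 in the mutants, against 9.79, 10.03 and 9.94 in the controls, a difference of 0.14 ± 0.08 (SE, limma adjusted p = 0.947). Mutant replicate 2 of Gria1 lay below control replicate 2, so the groups overlapped. Gria2, the subunit that sets the low calcium permeability of the receptor, differed by -0.02, with an interval of -0.23 to 0.19. Gria4 differed by -0.11, with an interval of -0.42 to 0.21.

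NMDA receptors combine the obligatory subunit of Grin1 with subunits of the Grin2 and Grin3 genes. None of the 6 genes measured passed, and their median was -0.02. Grin2d was at 6.89, 6.75 and 6.85 in the mutants, against 6.71, 6.73 and 6.67 in the controls. The lowest mutant was just above the highest control, and the difference was 0.12 ± 0.06 (SE, limma adjusted p = 0.927). Grin2b, the main Grin2 subunit of the embryonic forebrain, was at 9.29, 9.44 and 9.76 in the mutants, against 9.63, 9.51 and 9.75 in the controls, with a difference of -0.14 and an interval of -0.41 to 0.13. Grin2a was at 5.18, 5.32 and 5.31 in the mutants, against 5.27, 5.09 and 4.99 in the controls, within the range of the sensory receptor genes. Grin2c, Grin3a and Grin3b differed by between -0.06 and 0.01. Grid1, a delta receptor that binds secreted cerebellins rather than acting as a typical glutamate-gated channel, was at 8.16, 8.03 and 8.12 in the mutants, against 8.13, 7.97 and 8.20 in the controls. Its difference was 0.00, with an interval of -0.17 to 0.18.

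GABA-A receptors are pentamers, most often of alpha, beta and gamma or delta subunits. None of the 10 genes measured passed with all arrays, and their median was -0.01. Gabrb2 (Entrez 14401), a beta subunit, was at 9.46, 9.35 and 9.77 in the mutants, against 9.07, 8.99 and 9.25 in the controls. The groups did not overlap, and the difference was 0.42 ± 0.11 (SE), with an interval of 0.16 to 0.68 and a limma adjusted p of 0.339. That adjusted p was 0.275 to 0.84 when 1 array was left out. Gabrb2 was the one receptor gene with several probe sets, and the other probe sets gave differences of 0.43 and 0.49. Their limma adjusted p was 0.388 and 0.349 over the 21789 single-symbol probe sets. All 3 probe sets had every mutant above every control.

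Of the 25 measured receptor genes with a start window in the RefSeq table, Gabrb2 and Grik2 held TGACCA, which is 8.0% of the 25, where 15.4% of all genes in the table held it in at least 1 of their windows. Gabrb2 has 3 windows, and the first (chr11:42420190-42420489, plus strand) is shown because it holds the 1 match, in capitals.
Gabrb2: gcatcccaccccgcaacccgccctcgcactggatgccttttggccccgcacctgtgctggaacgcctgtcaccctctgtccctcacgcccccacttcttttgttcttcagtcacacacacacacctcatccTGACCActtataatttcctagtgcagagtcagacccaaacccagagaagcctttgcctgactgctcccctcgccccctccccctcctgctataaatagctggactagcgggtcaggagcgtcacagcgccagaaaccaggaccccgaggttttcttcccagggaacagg

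**Figure D3:**
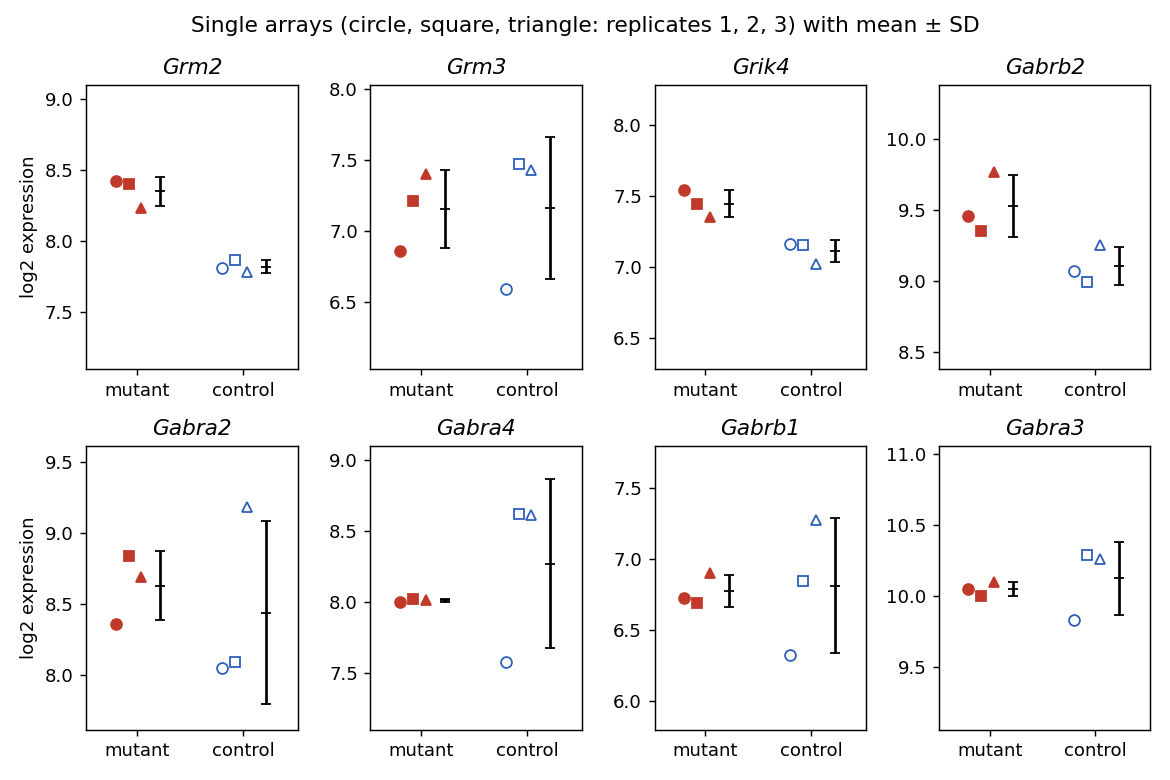
Log2 expression of 8 receptor genes on single arrays, mutants in filled red and controls in open blue, with circles, squares and triangles for replicates 1, 2 and 3 and black bars for mean ± SD; each panel spans the same height. Grm2, Grik4 and Gabrb2 do not overlap between groups, while in Gabra4 the mutants sit together between control replicate 1 and the other controls.

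Alpha subunits set much of the pharmacology of GABA-A receptors, and the control arrays differed among themselves for several of them. Gabra4 (Entrez 14397) was at 8.00, 8.02 and 8.01 in the mutants, against 7.58, 8.62 and 8.61 in the controls. The mutants thus spread over 0.02 on the log2 scale and the controls over 1.03, with control replicate 1 below all mutants and the other controls above them. With all arrays the difference was -0.26 ± 0.24 (SE, limma adjusted p = 0.9995). Without control replicate 1 it was -0.60 with a limma adjusted p of 0.012, and Gabra4 was then the 1 receptor gene past the threshold. Gabra2 was at 8.36, 8.84 and 8.69 in the mutants, against 8.05, 8.09 and 9.18 in the controls, where control replicate 3 was above all mutants and the other controls below them. Its difference was 0.19, with an interval of -0.44 to 0.82. Gabra3 was at 10.05, 10.00 and 10.10 in the mutants, against 9.83, 10.29 and 10.26 in the controls, and Gabra5 was at 8.69, 8.78 and 9.04 in the mutants, against 8.43, 8.83 and 9.03 in the controls. In Gabra3 the mutants lay between control replicate 1 and the other controls, as in Gabra4, while in Gabra5 mutant replicate 3 was the highest array.

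Gabrb1 (Entrez 14400) was at 6.72, 6.69 and 6.90 in the mutants, against 6.32, 6.84 and 7.27 in the controls. Control replicate 1 was again the lowest array and control replicate 3 the highest. Gabrg3 was at 7.01, 7.08 and 7.19 in the mutants, against 6.78, 6.99 and 7.04 in the controls, a difference of 0.16 ± 0.08 (SE, limma adjusted p = 0.945). The groups of Gabrg3 overlapped through control replicate 3. Gabrd, the subunit of many receptors outside synapses, differed by -0.04, with an interval of -0.21 to 0.14. Gabra6 and Gabrg1, within the range of the sensory receptor genes, differed by -0.05 and 0.03.

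Of the 10 GABA-A genes, control replicate 1 was the lowest control for 7, where it was the lowest control for 32.9% of all genes tested. These 7 include Gabrg1, which was within the range of the sensory receptor genes. It was also the lowest control for 17 of all 35 receptor genes (48.6%). By class these were 3 of 4 AMPA, 2 of 2 GABA-B, 3 of 7 metabotropic, 2 of 5 kainate, 0 of 6 NMDA and 0 of 1 delta genes, beside the GABA-A genes. The mean level of the 10 GABA-A genes was 7.50, 7.53 and 7.65 in the mutants, against 7.29, 7.54 and 7.74 in the controls. The mean level of 8 measured markers of GABAergic interneurons, neurons that reach the neocortex from the ganglionic eminences, stood in the same order of arrays within each group, at 9.09, 9.13 and 9.28 in the mutants, against 8.90, 9.09 and 9.14 in the controls. That of 8 pan-neuronal genes was 11.91, 11.95 and 11.99 in the mutants, against 11.88, 11.93 and 11.98 in the controls. All 8 interneuron genes and 6 of the 8 pan-neuronal genes were higher in the mutants, where 60.3% of all genes were. None of these 8 interneuron and 8 pan-neuronal genes passed. Their part in the receptor values was not tested.

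GABA-A genes lie in clusters. On chromosome 5, RefSeq lists Gabrg1, Gabra2, Gabra4 and Gabrb1 in this order, with 1 other protein-coding gene, Cox7b2, between Gabra2 and Gabra4. Gabra4 and Gabrb1 lie on opposite strands, and their annotated 5′ ends overlap by 388 bases. On chromosome 11 Gabra6 and Gabrb2 are neighbours, and on chromosome 7 Gabrg3 and Gabra5. Within the chromosome 5 cluster the differences were 0.19 for Gabra2, -0.26 for Gabra4 and -0.04 for Gabrb1, none of which passed. The windows shown are those of Gabra4 (chr5:71658259-71658558, minus strand) and Gabrb1 (chr5:71657671-71657970, plus strand, the first of 2). They were picked because these overlapping genes shared control replicate 1 as their lowest array. That is not particular to the pair, as control replicate 1 was the lowest control for 7 of the 10 GABA-A genes. Capitals mark the GC box or its reverse complement, which has 2 matches in the window of Gabra4 and none in that of Gabrb1.
Gabra4: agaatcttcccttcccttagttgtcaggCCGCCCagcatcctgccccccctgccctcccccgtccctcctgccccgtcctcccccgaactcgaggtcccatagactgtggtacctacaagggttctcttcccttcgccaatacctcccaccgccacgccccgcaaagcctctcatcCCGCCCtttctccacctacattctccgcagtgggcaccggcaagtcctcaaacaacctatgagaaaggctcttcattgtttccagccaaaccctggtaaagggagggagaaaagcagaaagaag
Gabrb1: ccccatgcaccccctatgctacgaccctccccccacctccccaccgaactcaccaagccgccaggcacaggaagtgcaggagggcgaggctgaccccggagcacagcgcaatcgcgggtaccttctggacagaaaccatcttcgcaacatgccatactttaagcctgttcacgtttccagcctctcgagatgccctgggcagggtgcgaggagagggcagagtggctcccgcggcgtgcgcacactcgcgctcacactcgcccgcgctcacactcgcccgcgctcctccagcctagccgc

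GABA-B receptors are pairs of the GABA-binding subunit of Gabbr1 and the subunit of Gabbr2, which couples to the G protein. Gabbr1 was at 11.50, 11.42 and 11.40 in the mutants, against 11.32, 11.37 and 11.39 in the controls. The lowest mutant was just above the highest control, and the difference was 0.08 ± 0.06 (SE, limma adjusted p = 0.9995). Gabbr2 was at 8.75, 8.72 and 8.97 in the mutants, against 8.34, 8.60 and 8.74 in the controls. Its difference was 0.25 ± 0.11 (SE), with an interval of 0.00 to 0.50 and a limma adjusted p of 0.823, and control replicate 3 lay above mutant replicate 2. The difference was 0.14 without control replicate 1, and reached 0.34 without control replicate 3.

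Genes that act beside the receptors were followed in 7 lists, and none of their members passed the threshold. Among 18 auxiliary subunits, proteins that bind receptors and change their traffic and gating, the median difference was 0.09, where that of all genes was 0.02. Of the 18, 5 (27.8%) had an unadjusted limma p under 0.05, where 6.05% of all genes did. The groups did not overlap for 7 (38.9%), 5 with mutants above and 2 with mutants below, where 10.5% of all genes did not overlap. Differences were positive for 10 of the 18 (55.6%), where 60.3% of all genes had a positive one. Both shares were the highest of the 7 lists. In the other lists the share with an unadjusted limma p under 0.05 ran from 0% to 25%. The share without overlap ran from 0% to 28.6%, and was 10.5% for the excitatory scaffold and trafficking genes. Cacng3, an AMPA receptor auxiliary subunit of the TARP family, was at 8.71, 9.08 and 9.15 in the mutants, against 7.56, 8.71 and 8.82 in the controls, a difference of 0.62 ± 0.30 (SE, limma adjusted p = 0.894). As in Gabra4, control replicate 1 was the lowest array. Cacng5, of the same family, was at 7.89, 8.09 and 8.02 in the mutants, against 7.25, 7.66 and 7.57 in the controls, a difference of 0.50 ± 0.11 (SE, limma adjusted p = 0.165). Every mutant of Cacng5 was above every control. Neto1 and Neto2, auxiliary subunits of kainate receptors, differed by 0.49 and -0.06, and Kctd8, Kctd12 and Kctd16, which bind GABA-B receptors, by 0.27, -0.01 and -0.16.

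Among 19 measured excitatory scaffold and trafficking genes the median was 0.04 and the range -0.20 to 0.16, with Shank2, a postsynaptic density scaffold, at -0.20 and Nsf, an ATPase of membrane fusion that binds AMPA receptors, at 0.16. Among 7 measured inhibitory scaffold genes the median was 0.02, with Iqsec3 at 0.21 and Gphn, which encodes the GABA-A and glycine receptor scaffold gephyrin, at -0.10. The 4 cerebellin genes, a family that includes ligands of delta receptors, had a median of 0.09, with Cbln2 at 0.22 and Cbln1 at 0.10.

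Of 8 measured genes of glutamate synthesis and transport the median was 0.09. Slc17a6, a vesicular glutamate transporter, was at 10.95, 10.76 and 10.77 in the mutants, against 10.51, 10.38 and 10.47 in the controls. These groups did not overlap, and the difference of 0.37 ± 0.07 (SE) had a limma adjusted p of 0.126. Slc1a2, a glial glutamate transporter, differed by 0.21 (limma adjusted p = 0.475). Of 8 measured genes of GABA synthesis, transport and chloride balance the median was 0.11. Slc6a13, a GABA transporter known from the meninges, was at 8.40, 5.85 and 5.86 in the mutants, against 5.99, 5.94 and 5.88 in the controls. Mutant replicate 1 alone stood above the other arrays, and the difference was 0.76 ± 0.58 (SE). The mean level of the 10 pericyte and meninges markers was 8.13 in that array, 7.41 and 7.31 in the other mutants and 7.07 to 7.19 in the controls. Among these markers Lum was at 6.90, 4.68 and 4.78 in the mutants, against 4.50, 4.63 and 4.50 in the controls, while Rgs5 was at 8.62, 8.54 and 8.62 in the mutants, against 8.36, 8.56 and 8.71 in the controls. The part of these markers in the value of Slc6a13 was not tested. Slc6a11, another GABA transporter, differed by 0.15. Slc12a2 and Slc12a5, the chloride cotransporters whose balance sets whether GABA depolarises, differed by -0.05 and 0.07.

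Of 11 other GABA-A and glycine receptor genes the median was 0.03. Glra2, the glycine receptor alpha subunit that prevails in the embryonic brain, was at 11.01, 10.84 and 11.42 in the mutants, against 10.40, 10.42 and 10.72 in the controls. Its groups did not overlap, and the difference of 0.58 ± 0.15 (SE) had a limma adjusted p of 0.278. Gabre, the epsilon subunit of GABA-A receptors, differed by -0.26 (limma adjusted p = 0.821).

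**Figure D4:**
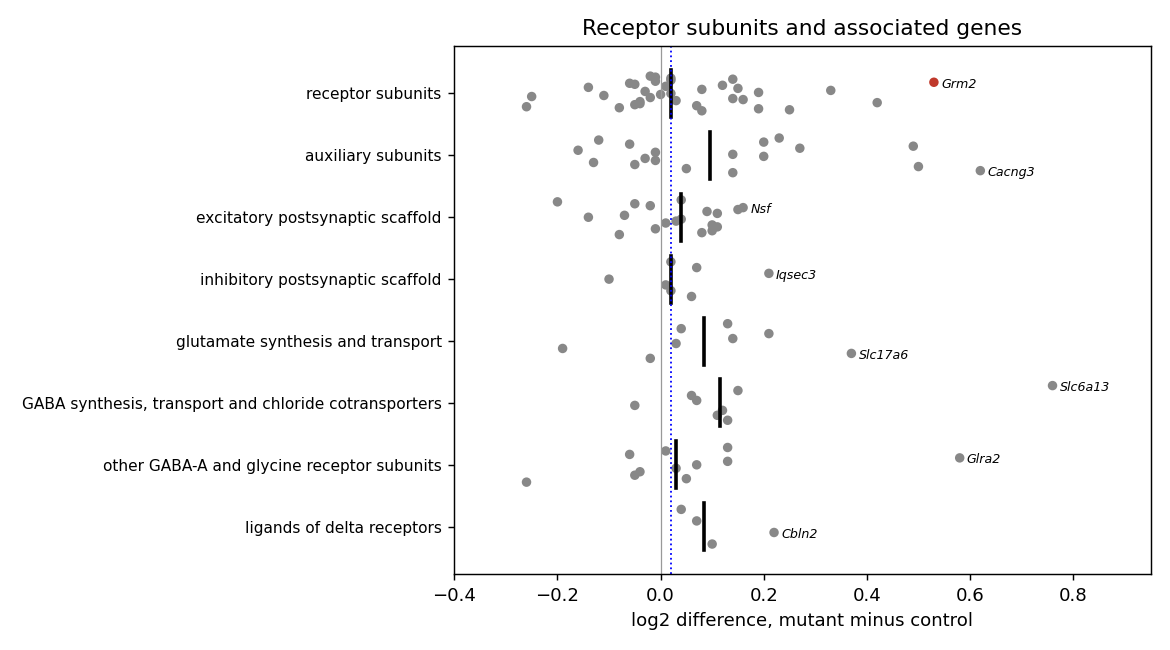
Log2 difference, mutant minus control, of the 35 receptor genes and of the genes of 7 lists of associated genes, 1 point a gene, red where the adjusted p was under 0.05; black bars are list medians, the dotted line is the median of all genes, and the gene with the highest difference of each list is named. Grm2 is the one red point, and the highest differences of single genes in the other lists, Slc6a13 at 0.76 and Cacng3 at 0.62, did not pass.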

How the data were processed

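The authors deposited log2 values of 35556 probe sets, made with Affymetrix Expression Console and RMA (background correction, quantile normalization, probe set summary) per the submitters' processing notes; sources used here state neither their versions nor the array's genome build. The values, between 3.41 and 13.75, fit a log2 scale. RMA compresses differences of dim genes. Precision is limited by 3 arrays a group.

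Gene symbols came from the platform annotation held by GEO, with 21698 of 21789 single-symbol probe sets matched to RefSeq by Entrez number. The probe set with the highest mean stood for each gene, which gave 19938 genes. The test of mutants against controls used lmFit and eBayes of limma 3.58.1 (R 4.3.3) on 6 arrays without covariates, with Benjamini-Hochberg adjustment over all genes and a threshold of 0.05, two-sided. The fit was run on simulated data with independent noise for each gene, as a check of the code that does not cover array effects. RNA was taken from each embryo separately per the series text. Promoter windows are RefSeq's.

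The members and lists were chosen with earlier results of these data known. All members were named. Values on every array were given for those past the threshold, up to 12 with the smallest p, and the first of any class without one; from each list of associated genes, those past the threshold and the 2 of largest absolute difference were named. Genes named outside this rule, chosen after their values were seen, were Grm3, Grik5, Grin2b, Gabra2, Gabra3, Gabra4, Gabra5 and Gabrb1 with array values, and Neto1, Neto2, Kctd8, Kctd12, Kctd16, Lum, Rgs5, Tbr1, Ebf1, Slc12a2 and Slc12a5. Alternatives were other normalizations, a filter on dim genes, the mean of probe sets, other variance models, array weights, a replicate block and leaving out each array.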

Additional observations from a re-analysis of the deposited data

How the results depend on the processing

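Grm2 passed as the 1 receptor gene under repeated quantile normalization, median centring, the filter on dim genes, the mean of probe sets, the intensity trend and array weights, with differences of 0.49 to 0.53. At an unadjusted p under 0.05 the counts were 5 receptor genes (4 to 9 with 1 array left out) and 1207 genes. All genes past the threshold were 87 with the intensity trend and 217 with array weights, against 57. With a replicate block there were 34 and no receptor gene (Grm2 adjusted p = 0.0618). Deviations of arrays that share a number correlated at 0.03, -0.14 and 0.08 over all genes tested. With 3 arrays a group, these values cannot tell whether the numbers mark a shared litter or batch, and no label says so. Leaving out 1 array gave 0 to 1 receptor genes, 20 to 50 genes in all and a median difference of the receptor genes of -0.01 to 0.06, with fewer arrays in the fit. That median was -0.01 with repeated quantile normalization and -0.02 with centring, which put the median of all genes at -0.01 and -0.02. No receptor gene past the threshold changed sign. Among those that did not pass, the sign changed under repeated quantile normalization for Grid1 (-0.04), Grik1 (-0.01), Grin2c (-0.02), Grm4 (-0.01) and Grm6 (-0.01), and under centring for Gabrg1 (-0.01), Grid1 (-0.04), Grik1 (-0.02), Grin2c (-0.02), Grm4 (-0.02) and Grm6 (-0.02). With array weights it changed for Gria2 (0.08), Grik1 (0.00), Grik3 (0.00), Grin2c (-0.04), Grm4 (-0.06) and Grm8 (0.02). It also changed when 1 array was left out, where differences ran from -0.01 to 0.56 for Gabra2, -0.23 to 0.00 for Gabra3, -0.10 to 0.21 for Gabra5, -0.29 to 0.19 for Gabrb1, -0.10 to 0.01 for Gabrd, -0.01 to 0.06 for Gabrg1, -0.08 to 0.07 for Gria2, -0.25 to 0.00 for Gria4, -0.06 to 0.05 for Grid1, -0.04 to 0.06 for Grik1, -0.15 to 0.10 for Grik3, -0.05 to 0.05 for Grin2c, -0.16 to 0.02 for Grin3b, -0.30 to 0.14 for Grm3, -0.02 to 0.05 for Grm4, -0.01 to 0.05 for Grm6, -0.06 to 0.04 for Grm7 and -0.06 to 0.03 for Grm8. Among genes that kept their sign, the difference with 1 array left out ran from 0.14 to 0.34 for Gabbr2, 0.02 to 0.22 for Grm5, 0.08 to 0.21 for Gabrg3, 0.08 to 0.20 for Gria1, 0.09 to 0.26 for Grik2, -0.27 to -0.04 for Grin2b and 0.30 to 0.51 for Gabrb2. The cause of these changes was not tested.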
